A study of Mus musculus with 18 samples.

Results

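The 47 genes described here encode the machinery of clathrin-mediated endocytosis and the Rab GTPases and sorting factors of the endosomes behind it. They were taken as a list of gene symbols and matched to the 53801 gene identifiers of the count table, and all 47 were found. RNA sequencing had been done on 18 libraries of mouse embryonic stem cells (ESCs), with 3 in each of 6 groups. WT cells were the parental E14TG2a line, and iEZR_CA cells were E14 cells carrying a PiggyBac transgene from which doxycycline induces a phosphomimetic, constitutively active ezrin, a protein that ties the plasma membrane to cortical actin. Both lines were sampled at 0 h in 2i+LIF (the ESC stage), then 24 h (T24) and 48 h (T48) into exit from naive pluripotency in N2B27 medium. Only iEZR_CA cells received doxycycline, starting the night before exit. The transgene, the drug and the history of the line therefore cannot be told apart.

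Depth ran from 10940752 to 33276622 reads on genes per library. Expression is given as normalized counts (counts divided by the library's size factor) and, between genes, as a level, the normalized count per kb of exons. Differences are log2 fold changes with their standard errors. A gene is called higher or lower where edgeR's quasi-likelihood test gave a Benjamini-Hochberg adjusted p under 0.05 over the 18469 genes tested. Ezr, which checks the labels, read 11467, 11805 and 12017 normalized counts in WT ESCs against 24372, 24728 and 25358 in iEZR_CA ESCs, and no iEZR_CA library overlapped with a WT library at any stage. Reads of the transgene and of the endogenous gene are counted together. All 8 naive markers listed were detected in every group, and their summed normalized count fell from 131633 ± 978 (SD, n = 3) in WT ESCs to 17630 ± 528 at T48. In iEZR_CA cells it went from 120075 ± 735 to 25389 ± 725. At T48 most of the WT sum was Pou5f1, a general pluripotency gene, at 13126 in WT and 10869 in iEZR_CA cells, while the other 7 were each higher in iEZR_CA. The 6 formative markers had T48 sums of 96868 ± 3757 in WT and 52303 ± 1265 in iEZR_CA cells. Dnmt3b made most of both sums (59626 and 26682), and Otx2 (2083 and 3492) and Fgf5 (1225 and 1336) had the higher mean in iEZR_CA cells. The 5 neural markers summed to 2628 ± 104.4 in WT and 1143 ± 40.67 in iEZR_CA ESCs. At T24 the sums were 1482 ± 52.95 and 1692 ± 11.13, and at T48 2397 ± 51.32 and 997.6 ± 13.75. Tubb3 was the most abundant of the 5 in every group. Syp in ESCs and Pax6 at T48 had the higher mean in iEZR_CA cells. The part of all these markers in the differences below was not tested. These are bulk RNA libraries, so a change in the share of cells of a kind and a change in RNA per cell cannot be told apart.

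In clathrin-mediated endocytosis, FCHO proteins and the AP2 adaptor complex start a pit on the inner face of the plasma membrane, cargo adaptors collect receptors, and clathrin polymerises over the pit. BAR-domain proteins shape its neck, dynamin cuts it and synaptojanin, a lipid phosphatase, helps the coat to come off. RAB5 and its effectors then receive the vesicle at the early endosome, from which RAB4, RAB11 and EHD proteins return cargo to the surface while RAB7 and the ESCRT complexes pass it on for degradation. High membrane tension opposes the bending step, which is why the machinery is of interest in cells with active ezrin.

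Of the 47 members, 45 had enough reads to be tested. Dnm3, the dynamin of brain and testis, averaged 2.24 normalized counts. Hgs, the ESCRT-0 subunit that binds ubiquitin, collected only 3 reads on 1 of its 2 overlapping gene identifiers and 0 on the other, and 97.2% of its exon bases lie in both. Reads in shared exons are discarded as ambiguous, so Hgs has no usable value. The highest level over all libraries belonged to Clta (clathrin light chain A) at 2820 normalized counts per kb. Arf6, Cltc, Rab7, Ehd1 and Rab5c followed between 1474 and 1354, and their order changed with the group. In WT ESCs, for instance, Cltc stood at 1689 ± 53.3 and Ehd1 at 1685 ± 39.6. The lowest levels among tested members were 11.1 for Dnm1, the neuronal dynamin, and 9.53 for Ehd3.

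iEZR_CA ESCs had higher counts of 20 members and lower counts of 13 members than WT ESCs, where 26.4% and 28.1% of all genes tested were called. At T24, 25 members were higher and 8 lower, beside backgrounds of 30.8% and 30.1%. At T48, 28 were higher and 11 lower, beside 31.0% and 30.1%. As shares of the 45 tested, the members called higher were 44.4%, 55.6% and 62.2% at the 3 stages, above the share of all genes at each. Those called lower were 28.9%, 17.8% and 24.4%, the first close to that of all genes. The background was not matched to the members in expression level, on which the power to call a small difference depends. The median size of a difference was 0.22, 0.26 and 0.32 for members and 0.27, 0.34 and 0.33 for all genes. Most differences were small. Changes of more than 1.5-fold were called for 4, 7 and 10 members, or 8.89%, 15.6% and 22.2%, while 21.0%, 26.0% and 27.4% of all genes passed that fold. The median difference of the members was 0.014, 0.18 and 0.19 at ESC, T24 and T48, against medians of -0.0092, -0.0020 and 0.0 for all genes. The 3 stages use separate libraries but the same WT and iEZR_CA lines, so a lasting difference between the lines would recur at each stage. In all, 16 members (35.6%) were higher in iEZR_CA at every stage, where 12.2% of all genes were. These were Clta, Ap2a2, Ap2b1, Ap2m1, Ap2s1, Fcho1, Eps15, Itsn2, Sh3gl1, Amph, Rab5b, Rab5c, Appl1, Rab4a, Ehd1 and Rab7. Only 4 members (8.89%) were lower at every stage, beside 11.1% of all genes, namely Cltc, Dab1, Sh3gl3 and Snx9. With libraries scaled to the ERCC spike-in instead, 9 members were higher and 6 lower in ESCs, 18 and 4 at T24, and 18 and 4 at T48. On that scale no more than 9 of the 16 members named above can therefore be higher at every stage. In ESCs these 20.0% and 13.3% were close to the 16.6% and 13.2% of all genes on that scale. After exit the 40.0% higher stood beside 23.6% at T24 and 21.8% at T48, and the 8.89% lower beside 15.0% and 17.3%.

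**Figure D1:**
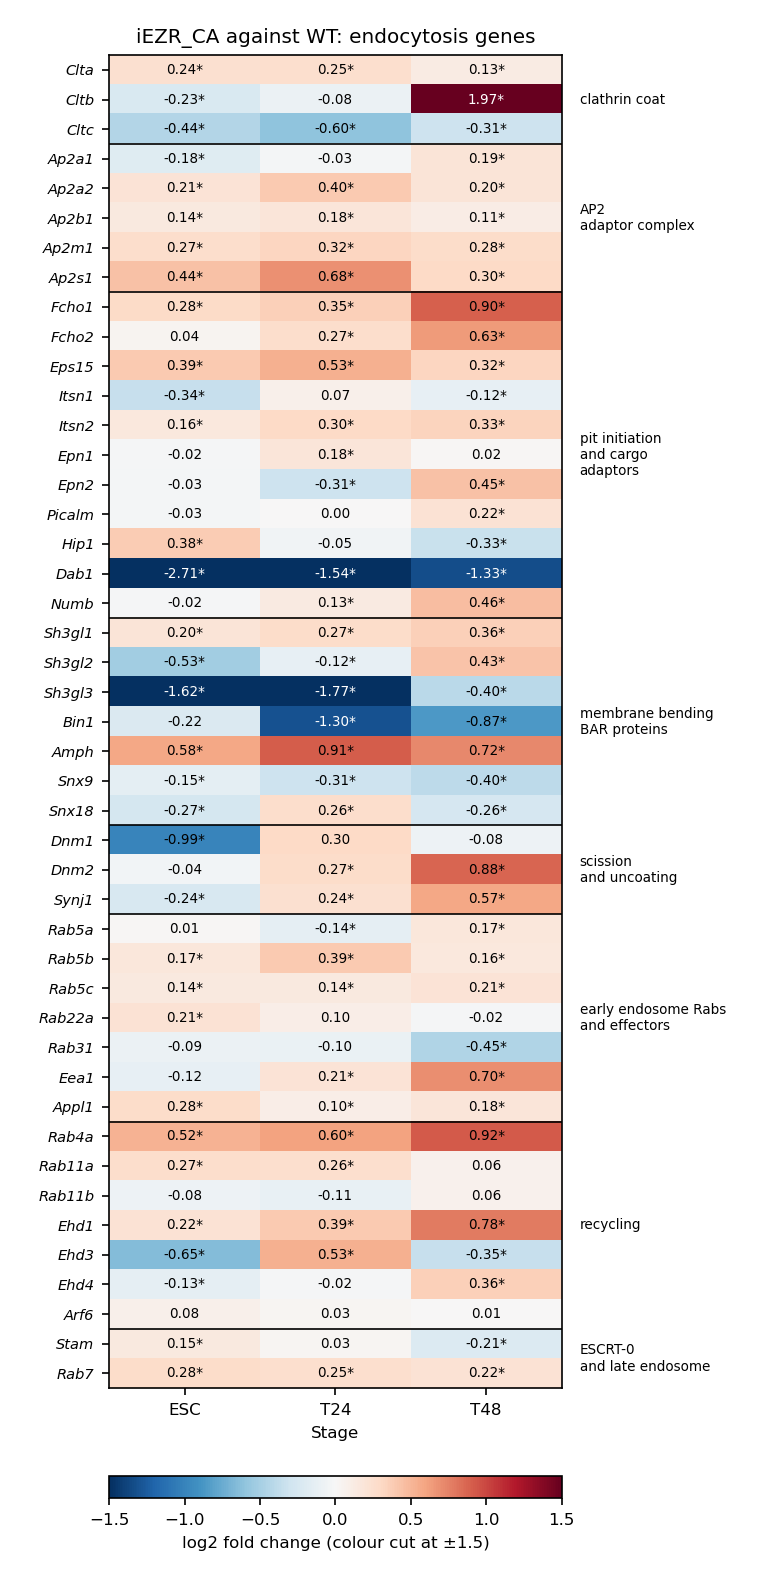
Log2 fold change of iEZR_CA against WT for the 45 members tested, in rows grouped by role, at ESC, T24 and T48 in columns. Red is higher and blue lower in iEZR_CA, colours stop at 1.5 either way, and an asterisk marks an adjusted p under 0.05. Red cells fill most of the AP2 rows and the T48 column, and the darkest blue cells are Dab1 and Sh3gl3.

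The 3 clathrin genes moved in different ways. Cltc, the single widely expressed clathrin heavy chain, read 14696, 14526 and 13840 normalized counts in WT ESCs and 10665, 10477 and 10714 in iEZR_CA ESCs. At T24 it read 14829, 14933 and 15530 in WT and 9773, 10308 and 9754 in iEZR_CA cells. At T48 the values were 13322, 14107 and 14107 in WT and 11562, 10821 and 10915 in iEZR_CA cells. Every iEZR_CA library was thus below every WT library of its stage. The differences were -0.44 ± 0.027 (SE), -0.60 ± 0.027 and -0.31 ± 0.027, with edgeR adjusted p = 5.6e-22, 1.5e-28 and 1.2e-15. Over time Cltc changed little, by between -0.097 and 0.063 on the log2 scale over both lines. The time changes at T24 and T48 in WT and at T48 in iEZR_CA lost their calls when single libraries were left out. Without WT ESC replicate 3, for example, the T24 change in WT went from 0.060 to 0.030 (edgeR adjusted p = 0.35). Clta went the other way between the lines, with 5642, 5464 and 5653 in WT ESCs and 6757, 6555 and 6538 in iEZR_CA ESCs. It was higher by 0.24 ± 0.029, 0.25 ± 0.030 and 0.13 ± 0.030 at ESC, T24 and T48.

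Cltb, the other clathrin light chain, showed the largest gap of the members between the lines at T48. It read 196.3, 189.3 and 203.8 normalized counts in WT T48 cells and 775.4, 754.0 and 786.6 in iEZR_CA T48 cells. The groups lay far apart, and the difference was 1.97 ± 0.065 (edgeR adjusted p = 2.4e-37). At the earlier stages iEZR_CA cells had the lower means, 983 ± 3.39 against 1142 ± 78.3 (SD, n = 3) in ESCs, a difference of -0.23 ± 0.047 that passed the test, and 866 ± 38.9 against 918 ± 33.1 at T24, where -0.084 ± 0.049 did not. Between ESC and T48 Cltb changed by -2.55 ± 0.062 in WT cells, while iEZR_CA cells went down by 0.35 on the log2 scale. As a share of the light chain level per kb, Cltb fell from 7.01% ± 0.35 at T24 to 1.78% ± 0.15 at T48 in WT cells and was 6.15% ± 0.19 in iEZR_CA T48 cells. The size of this share depends on the gene length used, and with no division by length it was 16.9% and 4.67% in WT and 15.1% in iEZR_CA cells. The 4 fibroblast markers summed to 381 ± 24.2 normalized counts in WT T48 cells, against 42.5 ± 9.53 in WT ESCs and 56.9 ± 12.8 in iEZR_CA T48 cells. Of the 4, Col1a2 (200.3), Thy1 and Col1a1 were highest in WT T48 cells of these groups, while Col3a1 was near 0, at 2.71 there and 4.37 in iEZR_CA T48 cells. Whether that has a part in the loss of Cltb was not tested.

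**Figure D2:**
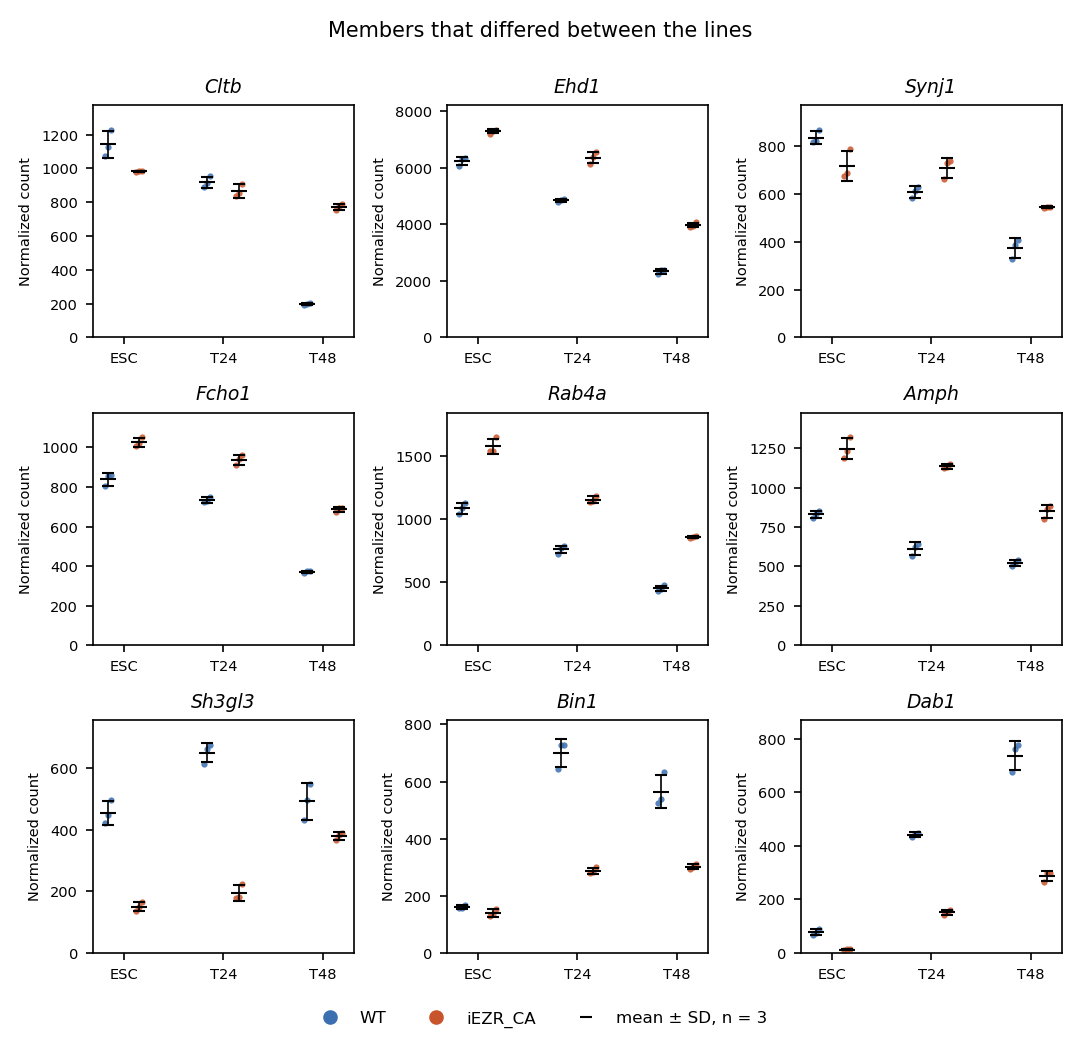
Normalized counts of 9 members in the 18 libraries, by stage, with 1 point per library, WT in blue and iEZR_CA in orange, and the mean and SD of 3 libraries in black. Cltb separates the lines at T48, where WT libraries lie between 189.3 and 203.8. Dab1 and Bin1 rise with exit in both lines and lie lower in iEZR_CA after exit.

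Cltb, Sh3gl2 and Dnm2 were the members that fell in WT cells by T48 with the largest positive differences between the lines in their change, leaving out genes under 50 normalized counts. The upstream sequences of Cltb and Dnm2 are shown because these genes met that rule. For Sh3gl2 all 250 bases of the window lie in exon sequence annotated in GENCODE M21, and it is not shown. The 250 bases before the RefSeq start (GRCm38.p6) lie at chr13:54611374-54611623 on the minus strand for Cltb and chr9:21424658-21424907 on the plus strand for Dnm2, each ending at the base before the start. They read 5′ to 3′ as follows, with matches to the motifs searched in capitals.
Cltb: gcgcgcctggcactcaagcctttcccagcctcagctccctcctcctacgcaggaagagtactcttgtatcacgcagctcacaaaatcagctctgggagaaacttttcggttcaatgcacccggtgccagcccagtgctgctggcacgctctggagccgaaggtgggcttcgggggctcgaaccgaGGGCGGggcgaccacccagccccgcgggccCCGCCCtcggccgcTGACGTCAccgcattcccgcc
Dnm2: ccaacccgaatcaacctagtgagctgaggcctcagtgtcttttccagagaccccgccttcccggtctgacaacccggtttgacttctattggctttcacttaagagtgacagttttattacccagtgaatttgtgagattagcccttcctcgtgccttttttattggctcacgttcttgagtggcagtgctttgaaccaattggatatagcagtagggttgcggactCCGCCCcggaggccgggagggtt
Both strands were searched for GGGCGG (the core of a GC box), CACGTG (an E-box), CAAGGTCA (an ESRRB-type site), GGGTGTGG (a KLF-type site) and TGACGTCA (the full CRE), the last added after the sequences had been read. GGGCGG occurs 2 times before Cltb and 1 time before Dnm2, and it is present in 32.7% of 32851 promoters of the same length. TGACGTCA occurs 1 time before Cltb and is present in 1.55% of those promoters. CACGTG, CAAGGTCA and GGGTGTGG, present in 6.02%, 1.33% and 3.2% of promoters, did not occur in these windows. G and C make up 66.4% and 51.2% of the bases before Cltb and Dnm2. Neither window overlaps an exon of its gene in GENCODE M21. The bases just after the RefSeq start were found in GENCODE M21 transcripts for Dnm2 but not for Cltb. On its strand the GENCODE M21 gene of Cltb begins at 54611344, downstream of the RefSeq start.

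AP2, the complex of 4 subunits that links clathrin to membrane and cargo, was higher in iEZR_CA cells for 4 of its 5 genes in ESCs (80.0%), 4 at T24 and all 5 at T48, where 26.4%, 30.8% and 31.0% of all genes tested were higher. The small subunit gene Ap2s1 differed most. It read 1294, 1327 and 1394 normalized counts in WT ESCs and 1869, 1806 and 1807 in iEZR_CA ESCs, without overlap. The difference was 0.44 ± 0.039 in ESCs, 0.68 ± 0.041 at T24 and 0.30 ± 0.041 at T48, with edgeR adjusted p = 9.4e-16, 8.9e-24 and 1.2e-09. Ap2m1, whose product reads tyrosine sorting signals, read 1651, 1683 and 1777 in WT ESCs and 2061, 2087 and 2038 in iEZR_CA ESCs. It declined in both lines to 992.3, 931.1 and 938.7 in WT and 1166, 1115 and 1206 in iEZR_CA cells at T48. At T24 the values were 1287, 1284 and 1258 in WT and 1611, 1598 and 1592 in iEZR_CA cells. The lines kept their distance on the log2 scale, with differences of 0.27 ± 0.038, 0.32 ± 0.040 and 0.28 ± 0.043. Ap2b1, of the beta subunit, was higher by 0.14, 0.18 and 0.11. The 2 alpha subunit genes differed from each other. Ap2a2 was higher at all stages (0.21, 0.40 and 0.20), while Ap2a1 was lower in iEZR_CA ESCs (-0.18 ± 0.029) and higher at T48 (0.19 ± 0.031). Ap2a1 made 59.1% ± 0.52 of the alpha subunit level per kb in WT ESCs and 52.6% ± 0.36 in iEZR_CA ESCs, and by T48 the shares were 50.8% ± 0.27 and 50.8% ± 0.73. The size of these shares depends on the gene length used. Not divided by length, Ap2a1 and Ap2a2 averaged 4309 and 3925 normalized counts in WT ESCs and 3836 and 4561 in iEZR_CA ESCs. Of the Ap2a1 exon bases, 16.7% overlap Fuz on the opposite strand, and the sources used here do not say whether counting used the strand.

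Among the 11 genes of pit initiation and cargo adaptors, 4 were higher and 2 lower in iEZR_CA ESCs, 6 and 2 at T24, and 7 and 3 at T48. The shares higher were 36.4%, 54.5% and 63.6%, beside 26.4%, 30.8% and 31.0% of all genes, and the 27.3% lower at T48 was close to the 30.1% of all genes. Fcho1 and Fcho2, which bind curved membrane before the coat assembles, differed least between the lines in ESCs and most at T48. Fcho1 read 373.3, 363.3 and 372.4 normalized counts in WT T48 cells against 691.7, 695.5 and 673.9 in iEZR_CA T48 cells. Its differences were 0.28 ± 0.046, 0.35 ± 0.048 and 0.90 ± 0.056 at the 3 stages. Fcho1 lies on chromosome 8, where the median gene was also higher in iEZR_CA, by 0.18, 0.24 and 0.20, and the 101 genes within 2.5 Mb of it had a median of 0.12 at T48. Fcho2, on chromosome 13, had differences of 0.039, 0.27 and 0.63, of which the first did not pass the test. The scaffold genes Eps15 and Itsn2 were higher at every stage, Eps15 by 0.39, 0.53 and 0.32 and Itsn2 by 0.16, 0.30 and 0.33. Itsn1 was lower in ESCs (-0.34 ± 0.036) and at T48 (-0.12 ± 0.037). Epn1 and Epn2 encode the epsins, which bind ubiquitinated cargo and bend membrane. Epn2 read 4088, 4217 and 4275 in WT and 3281, 3493 and 3357 in iEZR_CA cells at T24, and 2296, 2224 and 2288 against 3068, 3059 and 3133 at T48. It changed sides, at -0.31 ± 0.031 at T24 and 0.45 ± 0.033 at T48, and Epn1 passed the test only at T24, with 0.18 ± 0.033. Picalm, which sizes the vesicle and sorts SNAREs, was higher only at T48 (0.22 ± 0.032). Numb, an adaptor known from Notch signalling, was higher by 0.46 ± 0.057 at T48, and its call at T24 (0.13) was lost without any of 4 libraries, with 0.12 and edgeR adjusted p = 0.097 without WT T24 replicate 2.

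Dab1, the adaptor of the reelin receptors, stood furthest below WT in ESCs and at T48, and Sh3gl3 did at T24. It read 65.19, 74.98 and 88.55 normalized counts in WT ESCs and 12.18, 10.88 and 12.6 in iEZR_CA ESCs. At T48 it read 673.9, 776.3 and 761.1 in WT and 299.4, 297.8 and 265.0 in iEZR_CA cells. All iEZR_CA libraries were below all WT libraries of their stage, with differences of -2.71 ± 0.21 in ESCs, -1.54 ± 0.084 at T24 and -1.33 ± 0.069 at T48 (edgeR adjusted p = 9.0e-18, 8.0e-26 and 5.3e-27). It rose in both lines, by 3.23 ± 0.087 in WT and 4.61 ± 0.16 in iEZR_CA cells by T48. The level stayed low, at 93.2 ± 6.99 normalized counts per kb at its highest, in WT T48 cells. Hip1, which joins coats to actin, was higher in iEZR_CA ESCs (0.38 ± 0.032) and lower at T48 (-0.33 ± 0.032). It read 3325, 3108 and 3038 in WT ESCs and 3730, 3778 and 3642 at T48, but 4250, 4034 and 4060 and then 3022, 2937 and 2827 in iEZR_CA cells.

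Of the 7 BAR-domain genes, 2 were raised and 4 were lower in iEZR_CA ESCs, and 3 were raised and 4 lower at both later stages. The 28.6% raised in ESCs was close to the 26.4% of all genes, and the 57.1% lower at each stage stood beside 28.1%, 30.1% and 30.1%. The amphiphysins Amph and Bin1 are related genes and went in opposite directions. Amph read 566.1, 623.8 and 644.7 normalized counts in WT T24 cells and 1122, 1149 and 1133 in iEZR_CA T24 cells. Its differences were 0.58 ± 0.048, 0.91 ± 0.051 and 0.72 ± 0.054. Bin1 read 727.8, 726.8 and 644.7 in WT T24 cells and 299.5, 280.3 and 282.3 in iEZR_CA T24 cells, after close values in ESCs (155.1, 158.4 and 166.9 against 153.9, 127.2 and 135.8). Exit raised Bin1 in both lines, and iEZR_CA cells ended lower, with differences of -1.30 ± 0.068 at T24 and -0.87 ± 0.070 at T48 (edgeR adjusted p = 1.4e-26 and 1.1e-17). In ESCs its difference of -0.22 missed the threshold (edgeR adjusted p = 0.061), and it passed without iEZR_CA ESC replicate 1, at -0.30 and 0.027.

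The endophilins bend the neck and recruit dynamin and synaptojanin, and their 3 genes differed from each other. Sh3gl1, the widely expressed one, was higher by 0.20, 0.27 and 0.36 at the 3 stages. Sh3gl3 read 497.9, 447.6 and 421.5 normalized counts in WT ESCs and 165.0, 134.8 and 148.4 in iEZR_CA ESCs, then 549.5, 432.1 and 495.9 against 365.5, 389.3 and 383.7 at T48. The gap was -1.62 ± 0.091 in ESCs, -1.77 ± 0.081 at T24 and -0.40 ± 0.073 at T48. Sh3gl2 read 2419, 2393 and 2207 in WT ESCs and 310.7, 296.4 and 315.9 at T48, and 1650, 1608 and 1642 and then 406.5, 425.5 and 414.9 in iEZR_CA cells. It passed from lower in iEZR_CA (-0.53 ± 0.040 in ESCs) to higher (0.43 ± 0.064 at T48), and the small T24 difference of -0.12 lost its call without WT T24 replicate 3 (-0.10) or iEZR_CA T24 replicate 2 (-0.067). Endophilin level per kb was therefore shared differently in ESCs, with Sh3gl1 at 51.1% ± 2.0 in WT and 66.2% ± 0.56 in iEZR_CA cells. The sorting nexins of the late pit were mixed. Snx9 was lower by 0.15, 0.31 and 0.40 on the log2 scale, and its ESC call was lost without any of 4 libraries (-0.098 and edgeR adjusted p = 0.21 without WT ESC replicate 1). Snx18 was lower in ESCs (-0.27), higher at T24 (0.26) and lower at T48 (-0.26).

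Dnm2, the dynamin of most cell types, made 96.0% to 98.7% of the dynamin level per kb in every group. It read 3639, 3658 and 3598 normalized counts in WT ESCs and 3694, 3362 and 3599 in iEZR_CA ESCs, where the lines overlapped. At T24 it read 3085, 3028 and 3116 in WT and 3838, 3583 and 3717 in iEZR_CA cells. At T48 it read 1452, 1558 and 1435 in WT and 2740, 2711 and 2619 in iEZR_CA cells, so that WT had lost more than iEZR_CA. The differences were -0.042 ± 0.032, 0.27 ± 0.032 and 0.88 ± 0.035, with edgeR adjusted p = 0.27, 3.1e-11 and 1.0e-32. Synj1, the lipid phosphatase that helps in uncoating, moved in the same order, from -0.24 ± 0.056 in ESCs to 0.24 ± 0.058 at T24 and 0.57 ± 0.066 at T48. It read 330.0, 409.2 and 384.6 in WT T48 cells against 547.0, 542.4 and 546.8 in iEZR_CA T48 cells. Dnm1 was low throughout, at 123.6, 72.69 and 87.7 in WT ESCs and 54.26, 47.71 and 35.0 in iEZR_CA ESCs, and passed the test only there (-0.99 ± 0.17).

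**Figure D3:**
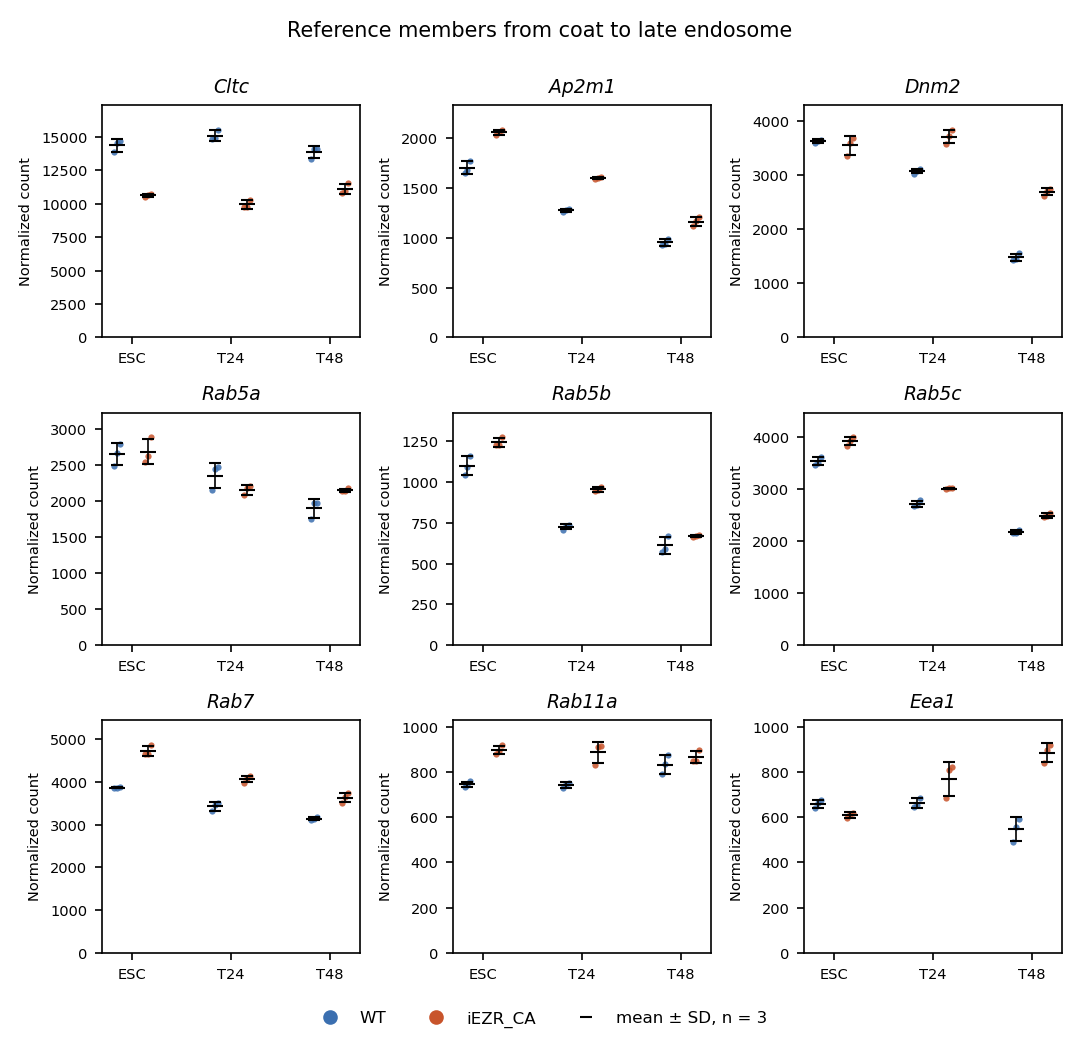
Normalized counts of 9 reference members in the 18 libraries, by stage, with 1 point per library, WT in blue, iEZR_CA in orange, and the mean and SD of 3 libraries in black. Cltc lies lower in iEZR_CA at every stage, Ap2m1, Rab5c and Rab7 lie higher, and Dnm2 separates at T24 and T48 and Eea1 at T48.

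RAB5, the GTPase that identifies early endosomes, comes from 3 genes that fell in both lines. Rab5c carried most of the family level per kb, 66.2% to 68.9% over the 6 groups, followed by Rab5a with 19.7% to 24.1% and Rab5b with 9.29% to 11.4%. The order held with the longest transcript in place of the exon union and with no division by length, where Rab5c in WT ESCs made 60.6% and 48.5%. The 3 genes are close in sequence, and reads that fit several of them equally are not counted. Rab5a, the form most often used to mark or perturb early endosomes, read 2786, 2669 and 2482 normalized counts in WT ESCs and 2882, 2545 and 2622 in iEZR_CA ESCs. At T24 it read 2465, 2438 and 2156 in WT and 2211, 2174 and 2078 in iEZR_CA cells. At T48 it read 1975, 1748 and 1975 in WT and 2174, 2140 and 2132 in iEZR_CA cells. The lines overlapped in ESCs and at T24, and its differences were 0.014 ± 0.056, -0.14 ± 0.058 and 0.17 ± 0.059. The T24 call (edgeR adjusted p = 0.046) was lost without any of 5 libraries, with -0.095 and 0.21 without WT T24 replicate 1, and the T48 call (0.019) was lost without iEZR_CA T48 replicate 1, at 0.15 and 0.071.

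Rab5b and Rab5c were higher in iEZR_CA at all stages. Rab5c read 3464, 3507 and 3613 in WT ESCs and 3921, 3834 and 3990 in iEZR_CA ESCs, with differences of 0.14 ± 0.030, 0.14 ± 0.031 and 0.21 ± 0.032 (edgeR adjusted p = 3.8e-05, 3.9e-05 and 6.8e-08). At T24 Rab5c read 2778, 2689 and 2675 against 3009, 3011 and 2991, and at T48 2151, 2216 and 2150 against 2538, 2456 and 2471. Rab5b read 1161, 1044 and 1093 in WT ESCs and 1273, 1228 and 1228 in iEZR_CA ESCs, 731.6, 733.8 and 706.2 against 969.9, 950.4 and 941.7 at T24, and 571.9, 669.2 and 590.1 against 662.4, 670.9 and 672.7 at T48, where 1 WT library overlapped with the iEZR_CA libraries. It differed most at T24, by 0.39 ± 0.049, and its T48 difference of 0.16 fell to 0.11 and lost its call (edgeR adjusted p = 0.12) without WT T48 replicate 1. The summed RAB5 level was 2372 ± 16.1 normalized counts per kb in WT ESCs and 1496 ± 4.88 at T48, and 2589 ± 59.6 and 1701 ± 22.6 in iEZR_CA cells. Eea1, the tether that RAB5 recruits, took another course. It read 490.7, 558.3 and 593.3 in WT T48 cells and 919.2, 838.6 and 896.9 in iEZR_CA T48 cells, from 663.1, 640.4 and 674.4 and 615.7, 596.0 and 618.8 in ESCs. It fell in WT cells (-0.29 ± 0.062) and rose in iEZR_CA cells (0.54 ± 0.059), which left a difference of 0.70 ± 0.060 at T48 (edgeR adjusted p = 1.0e-15). Appl1, which marks the endosomes that precede EEA1, was higher by 0.28, 0.10 and 0.18, where the 16 genes within 2.5 Mb had medians of -0.059, -0.060 and 0.16 and the median gene of its chromosome 14 stood at -0.30 in ESCs. Of the other RAB5-related GTPases, Rab22a was higher only in ESCs (0.21 ± 0.049). Rab31 read 673.1, 632.9 and 690.7 in WT T48 cells and 458.4, 507.8 and 507.2 in iEZR_CA T48 cells, a difference of -0.45 ± 0.061.

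**Figure D4:**
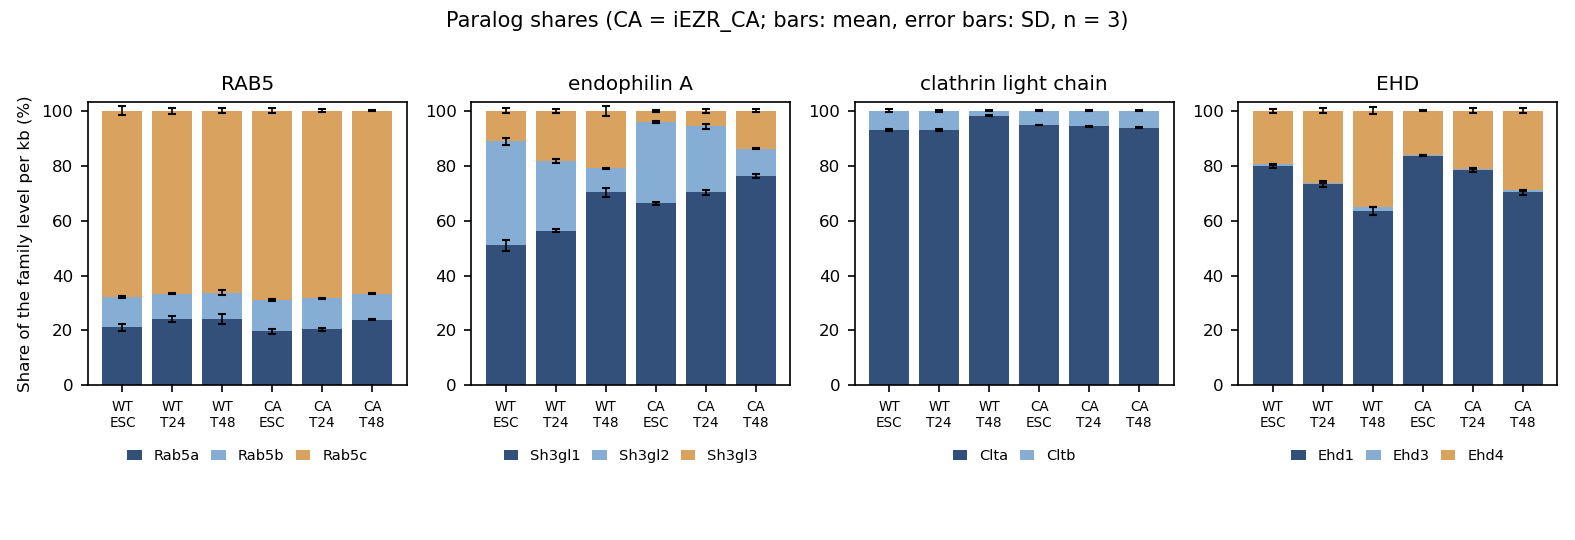
Shares of the summed level per kb taken by each gene in 4 families, as percent, for the 6 groups, with bars for the mean and error bars for the SD of 3 libraries. Rab5c takes 66.2% to 68.9% of the RAB5 level in every group, Sh3gl1 a larger share of endophilin in iEZR_CA cells, and Cltb drops to 1.78% in WT T48 cells.

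Recycling is represented by 7 genes, with 3 raised and 2 lowered in iEZR_CA against WT ESCs, 4 and 0 at T24, and 3 and 1 at T48. The shares raised were 42.9%, 57.1% and 42.9%, beside 26.4%, 30.8% and 31.0% of all genes, and the 28.6% lowered in ESCs was close to the 28.1% of all genes. Rab4a, which acts in fast return to the surface, was the most raised. It read 1042, 1126 and 1083 normalized counts in WT ESCs against 1540, 1538 and 1645 in iEZR_CA ESCs, and 473.7, 428.3 and 443.6 against 851.5, 856.3 and 860.9 at T48. The differences were 0.52 ± 0.043, 0.60 ± 0.047 and 0.92 ± 0.053. Rab4a lies on chromosome 8 too, and the 59 genes within 2.5 Mb had medians of 0.17, 0.22 and 0.15. Ehd1, the scission ATPase of the recycling endosome, read 2381, 2379 and 2239 in WT T48 cells and 3905, 4069 and 3950 in iEZR_CA T48 cells. It was higher by 0.22 ± 0.028, 0.39 ± 0.028 and 0.78 ± 0.031. Ehd4 was lower in ESCs (-0.13) and higher at T48 (0.36), and Ehd3, which stayed between 34.32 and 102.3 in all libraries, was lower in ESCs (-0.65), higher at T24 (0.53) and lower at T48 (-0.35). The last call was lost without any of 3 libraries, with -0.27 and edgeR adjusted p = 0.16 without WT T48 replicate 3. Rab11a, of the slow route, was higher in ESCs and at T24 (0.27 ± 0.050 and 0.26 ± 0.050), at 758.6, 745.2 and 733.1 against 892.5, 919.9 and 882.0 in ESCs. At T24 it read 747.7, 729.8 and 753.5 against 917.3, 913.2 and 832.9, and at T48 874.8, 835.5 and 790.6 against 849.8, 899.4 and 851.3. At T48 its values overlapped, and the difference was 0.064 ± 0.049. Rab11b and Arf6, which acts at the plasma membrane, passed the test at no stage, with differences between -0.11 and 0.077.

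Rab7, which replaces RAB5 as endosomes mature, read 3865, 3856 and 3873 normalized counts in WT ESCs and 4859, 4651 and 4641 in iEZR_CA ESCs. At T48 it read 3130, 3170 and 3111 in WT and 3508, 3735 and 3652 in iEZR_CA cells. At T24 the values were 3466, 3514 and 3305 against 3982, 4130 and 4093. It was higher without overlap at all stages, by 0.28 ± 0.029, 0.25 ± 0.030 and 0.22 ± 0.030 (edgeR adjusted p = 6.8e-13, 7.1e-11 and 3.8e-09). Stam, the partner of Hgs in ESCRT-0, read 1353, 1316 and 1226 in WT ESCs and 1498, 1432 and 1408 in iEZR_CA ESCs, and 738.0, 745.7 and 714.5 against 667.5, 610.1 and 607.9 at T48. It was higher in ESCs (0.15 ± 0.044) and lower at T48 (-0.21 ± 0.054).

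Exit lowered more members than it raised in both lines, except that with ERCC spike-in scaling iEZR_CA cells had 8 up and 4 down at T24, beside 24.6% and 11.1% of all genes, and 13 up and 12 down at T48, beside 40.8% and 18%. In WT cells 9 members rose and 29 fell by T24, where 31.8% and 33.6% of all genes did, and 9 rose and 32 fell by T48, beside 37.1% and 37.4%. In iEZR_CA cells 10 rose and 21 fell by T24, beside 27.1% and 28.9%, and 11 rose and 29 fell by T48, beside 35.2% and 35.0%. As shares of the 45 tested, 20.0% rose and 64.4% fell in WT by T24, and 20.0% and 71.1% by T48. Those of iEZR_CA cells were 22.2% and 46.7%, and 24.4% and 64.4%. The median change was -0.22 and -0.37 in WT and -0.045 and -0.28 in iEZR_CA cells, against medians within 0.01 of 0 for all genes. The sizes and, in iEZR_CA cells, the direction depend on the scale. With ERCC spike-in scaling the median change of all genes was 0.13 and 0.27 in WT and 0.14 and 0.26 in iEZR_CA cells at T24 and T48. The counts in WT then were 5 up and 12 down at T24, beside 28.8% and 18% of all genes, and 10 up and 16 down at T48, beside 43.0% and 21.8%. As shares of the members these were 11.1% and 26.7%, and 22.2% and 35.6%, and those of iEZR_CA cells were 17.8% and 8.89%, and 28.9% and 26.7%. Changes of more than 1.5-fold were made by 8 and 20 members in WT and 6 and 13 in iEZR_CA cells. As shares these were 17.8%, 44.4%, 13.3% and 28.9%, beside 32.4%, 45.3%, 24.0% and 39.0% of all genes. The 44.4% in WT at T48 was close to the share of all genes. The members with the largest falls in WT by T48 were Sh3gl2 (-2.93 ± 0.051), Cltb and Ehd1 (-1.44 ± 0.030). In iEZR_CA cells they were Sh3gl2 (-1.97 ± 0.049), Snx18 (-1.27 ± 0.049) and Stam (-1.20 ± 0.049). The fall of Snx18 in WT was complete by T24, with 4015, 3951 and 3482 normalized counts in ESCs and 1465, 1397 and 1300 at T24. At T48 it read 1563, 1484 and 1673 in WT cells. Dab1 and Bin1 led the rises in WT cells, followed by Rab31 (0.81 ± 0.063).

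Whether a gene changed differently in the lines was tested as the interaction of line and time. It was above 0 for 18 members and below 0 for 5 at T24, where 21.5% and 16.9% of all genes were called, and for 21 and 9 at T48, beside 25.7% and 20.0%. As shares of the 45 tested these were 40.0% and 11.1%, and 46.7% and 20.0%, the last close to that of all genes. On the spike-in scale the counts were 4 and 1 at T24, where the 8.89% above 0 was close to the 8.97% of all genes and the 2.22% below 0 stood beside 4.12%. At T48 they were 14 and 2, or 31.1% and 4.44%, beside 12.1% and 8.88%. Interactions of more than 1.5-fold were called for 4 and 12 members, or 8.89% and 26.7%, beside 15.0% and 21.5% of all genes. All 3 tested scission and uncoating genes were above 0 at both times. Of these, Dnm1 averaged only 58.3 normalized counts, and its changes over time in iEZR_CA cells did not pass the test. The values were 0.31 ± 0.045 and 0.92 ± 0.048 for Dnm2, 0.47 ± 0.081 and 0.81 ± 0.087 for Synj1, and 1.30 ± 0.26 and 0.91 ± 0.25 for Dnm1. At T48, 8 of the 11 pit initiation and adaptor genes were above 0, among them Fcho1 (0.61 ± 0.073), Fcho2 (0.59 ± 0.062), Numb (0.48 ± 0.079) and Epn2 (0.47 ± 0.046). The largest value was that of Cltb, 2.19 ± 0.081 (edgeR adjusted p = 4.1e-34), and Sh3gl2 had 0.95 ± 0.075. Eea1 (0.82 ± 0.086), Ehd1 (0.56 ± 0.041) and Ehd4 (0.49 ± 0.055) were the largest among the endosomal genes. Below 0 were Hip1 (-0.71 ± 0.045), Bin1 (-0.64 ± 0.13), Stam (-0.36 ± 0.069) and Rab31 (-0.36 ± 0.094). For Ap2m1, Rab5c and Rab7 the T48 interactions were 0.012 ± 0.057, 0.065 ± 0.043 and -0.062 ± 0.042, and none of these passed the test. For Rab11a the value of -0.20 ± 0.070 lost its call without WT T48 replicate 1 (-0.16, edgeR adjusted p = 0.070). The T48 calls of Cltc (0.13), Clta (-0.11), Itsn2 (0.17), Ap2s1 (-0.14) and Snx9 (-0.24) were each lost without 1 or more single libraries. For Cltc this was iEZR_CA T48 replicate 1 alone (0.093, edgeR adjusted p = 0.052).

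**Figure D5:**
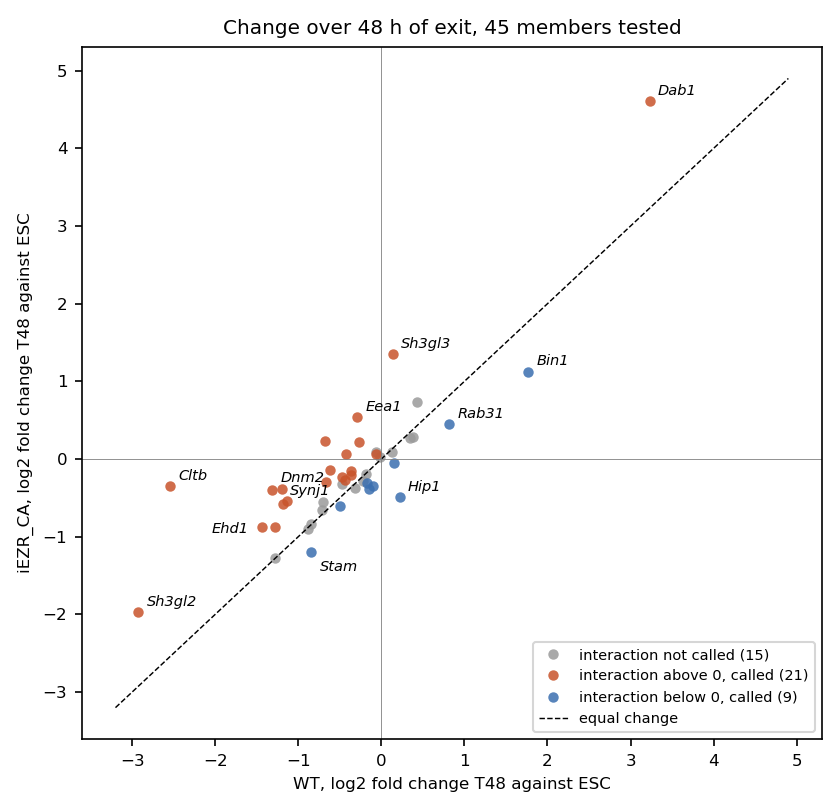
Log2 fold change between ESC and T48 in WT (horizontal) and in iEZR_CA (vertical) for the 45 members tested, with 1 point per gene. Orange and blue points have an interaction above (21) and below 0 (9) at an adjusted p under 0.05, grey points (15) do not, and the dashed line marks equal change. Cltb stands furthest from the line, at -2.55 in WT and -0.35 in iEZR_CA.

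The surrounding pathway was followed in 201 other genes in 7 lists, of which 195 were tested. In iEZR_CA against WT, 90 were higher and 40 lower in ESCs, 106 and 32 at T24, and 107 and 42 at T48. As shares these were 46.2% and 20.5%, 54.4% and 16.4%, and 54.9% and 21.5%, beside 26.4% and 28.1%, 30.8% and 30.1%, and 31.0% and 30.1% of all genes, which are the background of every list below. The 28 tested ESCRT and retromer genes had 13 higher (46.4%) and 2 lower (7.14%) in ESCs, 16 and 3 at T24, and 18 and 3 at T48 (64.3% and 10.7%), and a T48 median of 0.23. Among 29 regulators of RAB5 and tethers, 13 were higher and 7 lower in ESCs, 14 and 2 at T24, and 16 and 6 at T48. Of 15 genes of clathrin-independent uptake, 11, 10 and 9 were higher and 3, 3 and 4 lower at the 3 stages. The 24 recycling regulators had 14, 15 and 14 higher and 6, 5 and 3 lower. Of 45 tested further Rab genes, 18, 22 and 21 were higher and 10 lower at each stage. Of 16 cargo receptors, 6, 8 and 8 were higher and 3, 2 and 6 lower. The 38 further genes of clathrin-mediated endocytosis had 15, 21 and 21 higher and 9, 7 and 10 lower.

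Several of these genes differed far more than the members. The genes ranked here averaged at least 50 normalized counts, passed the test and did not overlap between the lines. Dab2, a clathrin adaptor for LDL-family receptors, averaged 45.2 ± 11.1 normalized counts in WT ESCs and 631 ± 19.0 in iEZR_CA ESCs, and 33.5 ± 8.47 against 303 ± 24.5 at T24. The differences were 3.81 ± 0.11 and 3.29 ± 0.14, and at T48 it was -0.25 ± 0.11. Dab2 also marks primitive endoderm. The 7 markers of that lineage summed to 251 ± 13.6 in WT ESCs and 774 ± 30.1 in iEZR_CA ESCs, where Dab2 made up most of the sum. Among the others, Gata4 was 97.5 ± 5.65 in WT and 17.4 ± 2.01 in iEZR_CA ESCs, Gata6 32.4 ± 3.06 and 61.5 ± 6.15, Sox17 25.3 ± 1.60 and 19.1 ± 11.7, Pdgfra 31.3 ± 12.1 and 30.2 ± 6.60, Foxa2 11.4 ± 4.09 and 13.9 ± 4.35, and Sox7 7.97 ± 2.01 and 1.30 ± 1.16. The 7 markers thus did not move in one direction, and the part of that lineage in the difference of Dab2 was not tested. Rin3 and Rin1, exchange factors for RAB5, were higher in ESCs by 3.32 ± 0.12 and 1.66 ± 0.11, and Rin3 read 433 ± 18.5 there against 43.3 ± 2.42 in WT. At T24 Rin3 (3.68 ± 0.27) and Rab6b (2.26 ± 0.13) led with Dab2. At T48 Rin1 was lower in iEZR_CA cells (-1.67 ± 0.12), and the difference of Rin3 (0.40 ± 0.29) did not pass the test. Furthest above WT at T48 stood Snap91 (2.12 ± 0.13), a neuronal relative of Picalm, Dnajc6 (1.89 ± 0.072), an auxilin that uncoats clathrin, and Rab3a (1.41 ± 0.18). All 3 fell in both lines between ESC and T48, by 1.98, 4.30 and 2.51 on the log2 scale in WT and by 0.71, 2.00 and 1.06 in iEZR_CA cells.

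Under the same limits, the genes furthest below WT in ESCs were Pacsin1 (-1.70 ± 0.10), the ARF6 regulator Acap3 (-1.19 ± 0.077) and Rab34 (-1.16 ± 0.064). At T24 they were Synj2 (-1.14 ± 0.17), Acap3 (-1.11 ± 0.066) and Pak1 (-1.06 ± 0.038), a kinase of macropinocytosis. At T48 the 3 genes furthest below WT had gained counts in WT cells since the ESC stage. Vldlr, a reelin and lipoprotein receptor, averaged 854 ± 50.5 in WT T48 cells and 73.3 ± 14.5 in iEZR_CA T48 cells (-3.52 ± 0.099). Rab25 averaged 242 ± 24.6 and 28.4 ± 2.12 (-3.08 ± 0.14), and Arrb1, an arrestin that brings receptors to pits, 1577 ± 51.4 and 195 ± 15.3 (-2.99 ± 0.064). In WT ESCs these 3 genes averaged 110 ± 13.7, 40.9 ± 6.99 and 72.7 ± 9.16. From ESC to T48 in iEZR_CA cells Arrb1 rose by 0.90 ± 0.10, and the changes of Vldlr (0.20) and Rab25 (-0.16) did not pass the test. Fgfr1, which carries FGF signalling and is itself internalised, averaged 3178 ± 13.3 in WT T48 cells and 3973 ± 47.4 in iEZR_CA T48 cells. Tfrc, the transferrin receptor and a standard cargo of clathrin pits, averaged 7491 ± 297 and 4998 ± 242. Fgfr1 and Tfrc were chosen for their roles after their values had been seen.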

How the data were processed

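Poly(A) RNA of 18 mouse ESC libraries (3 for each line and stage) had been sequenced paired-end. The authors trimmed reads with Trim Galore 0.6.5, aligned them with GSNAP 2015-09-29 to GRCm38 and counted reads per gene with HTSeq on Ensembl release 81, and they deposited 1 table of raw counts. Whether counting used the strand is not given in the sources used here. The table holds 53801 gene identifiers, of which 53706 matched GENCODE M21 for symbols, positions and exon lengths. Its 92 ERCC spike-in rows and 5 rows of reads not assigned to genes were kept out of library sizes. They held 0.575% to 0.884% and 21.3% to 24.3% of the reads of a library.

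Here the deposited counts were fitted with edgeR 4.0.16 (R 4.3.3; TMM factors, filterByExpr by group, robust quasi-likelihood, 6 group terms over all 18 libraries, 12 residual degrees of freedom), with Benjamini-Hochberg adjustment over 18469 genes and a threshold of 0.05. Normalized counts used DESeq2 1.42.0 size factors, from 0.523 to 1.55. Shares and levels carry SDs over 3 libraries. With 3 against 3 libraries an exact permutation test of a single value cannot go below p = 0.1, so none was used. The study describes the replicates as independent biological replicates. Libraries are numbered in accession order. The members, gene lists and tests were chosen with earlier results of these data known. The members named by rule were 9 reference genes (Cltc, Ap2m1, Dnm2, Rab5a, Rab5b, Rab5c, Rab7, Rab11a and Eea1) and members among the 3 largest changes each way in a comparison, with a mean of at least 50 normalized counts and no overlap of libraries. Their library values are printed for the groups a result turns on, as are those of Clta and Synj1, chosen after their values were seen. Other members are given by their differences. Promoter sequences come from RefSeq (GRCm38.p6), in which 39 of the 47 members had an entry. The alternatives were DESeq2, no filter, a mean of at least 50, only the groups compared, ERCC scaling, other gene lengths for shares, and leaving out each library.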

Additional observations from a re-analysis of the deposited data

Results flagged for a closer look

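In 7 cases the change during exit differed between the lines by more than 2-fold, by the line by time interaction in edgeR (1 on the log2 scale) with an adjusted p under 0.05. Cltb at T48 had 2.19 ± 0.081 (adjusted p = 4.1e-34), with the fall in WT cells described above. Dab1 had 1.17 ± 0.26 (adjusted p = 0.00013) at T24 and 1.38 ± 0.25 (2.8e-06) at T48, from 11.9 ± 0.90 normalized counts in iEZR_CA ESCs, a low count. Sh3gl3 at T48 had 1.22 ± 0.12 (3.0e-13). Dnm1 at T24 had 1.30 ± 0.26 (3.2e-05) and Ehd3 at T24 had 1.18 ± 0.24 (4.5e-05), both genes with low counts. Bin1 at T24 had -1.08 ± 0.13 (5.4e-11). Causes were not tested.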

How the results depend on the processing

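No paired analysis was run because the labels give no replicate numbers shared between groups. Scaling to the ERCC spike-in changed the counts of members most. In iEZR_CA against WT, members called higher went from 20 to 9 in ESCs and from 28 to 18 at T48, and members called lower from 13 to 6, 8 to 4 and 11 to 4 at ESC, T24 and T48. In WT the count of rises at T24 went from 9 to 5 and the falls from 29 to 12 at T24 and from 32 to 16 at T48. In iEZR_CA cells the falls went from 21 to 4 and from 29 to 12. Interactions above 0 at T24 went from 18 to 4, and those below 0 from 5 to 1 at T24 and from 9 to 2 at T48. The ratio of spike-in to gene reads varied most among the 3 iEZR_CA T48 libraries. Under this scaling 15 small falls over time turned positive without passing the test, namely Sh3gl1 (0.062) at T24 in WT, Ap2a2 (0.084), Ap2s1 (0.094), Arf6 (0.037), Cltc (0.19) and Rab22a (0.11) at T48 in WT, Amph (0.012), Ap2s1 (0.044), Cltc (0.054) and Fcho1 (0.015) at T24 in iEZR_CA, and Ap2a2 (0.063), Epn2 (0.11), Itsn1 (0.10), Picalm (0.027) and Sh3gl1 (0.052) at T48 in iEZR_CA. No called difference between the lines and no called interaction of a member turned its sign under any alternative run. Without a filter on low counts the interactions below 0 went from 5 to 3 at T24 and from 9 to 4 at T48. All 18 counts stayed within 1.5-fold under DESeq2, a mean of at least 50 and a fit of only the groups compared, and all 132 did with 1 library left out, where 73 of 2970 single values lost and 23 gained a call. Under ERCC scaling 136 single values lost and 3 gained a call, 15 turned sign as given above, and 251 did neither. Among shares within families, only those of RAB5 were put through this count, 18 in all. All 18 moved with no division by length and 17 with the longest transcript.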
